A study of Mus musculus with 119 samples.

Results

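The mitochondrially encoded genes were the 37 genes of the deposited tables whose symbols start with mt-, out of 55291 genes. They were 13 genes for proteins of the respiratory chain, 2 for ribosomal RNA (rRNA) and 22 for transfer RNA (tRNA), which is the full set of genes annotated on the mouse mitochondrial chromosome. Messenger RNA was sequenced from brain punches of female and male wild-type mice, in 119 libraries that each held 1 region of 1 mouse. The regions were the ventral tegmental area (VTA), where dopaminergic neurons lie, the nucleus accumbens (NAc) and dorsal medial striatum (DMS), the amygdala (Amy), and the prefrontal cortex (PFC). The mice received vehicle or 10 mg/kg tetrahydrocannabinol (THC), the main psychoactive compound of cannabis, by intraperitoneal injection each day from postnatal day 28 to 48, and behavioral testing began on day 63 without further drug. Each of the 20 groups held 6 libraries, apart from the male VTA with vehicle, which had 5. The study's methods also report the removal of 1 male VTA sample as an outlier. They do not name it, and all 119 libraries were kept here. The labels give C57BL/6J as the strain, 11 weeks as the age and dorsolateral striatum as the DMS tissue, where the study's text names C57BL/6NCrl mice, an older age and the DMS. The labels do not say which libraries share a mouse, so the 5 regions of an animal could not be linked. THC and vehicle were compared within each region and sex to ask whether an adolescent exposure left a trace in later gene expression.

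Mitochondria carry a small circular genome of their own. Both of its strands are transcribed as long precursors, and tRNAs that lie between most of the other genes are cut out of them to release the messenger RNAs and rRNAs. The mitochondrial proteins are core subunits of complexes I, III and IV and of the ATP synthase, and they work only together with many subunits encoded in the nucleus. Short poly(A) tails are added to most mitochondrial messenger RNAs, which is why these are read in libraries made from poly(A) RNA. Neurons depend heavily on the ATP that the respiratory complexes make. In bulk tissue, a lower level cannot be told apart from fewer cells of a type or from less RNA per cell.

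The order of the genes and the copies of them elsewhere in the genome bear on how their reads were counted, so a few stretches of sequence are shown. They were read from the GENCODE M21 transcripts on the GRCm38 (mm10) build, 5′ to 3′ on the strand of the gene. A block of unprocessed pseudogenes on the minus strand of chromosome 1 matched 7 of the 13 protein genes at 99% identity or more. For mt-Atp6, the a subunit of the ATP synthase, 678 of its 681 bases were also present without a mismatch in Gm10925. The first 60 bases of both are given, with the 43 bases that mt-Atp6 also shares with the neighboring mt-Atp8 in capitals.
mt-Atp6, chrM:7927-7986, plus strand: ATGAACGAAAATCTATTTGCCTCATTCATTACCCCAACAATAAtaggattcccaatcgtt
Gm10925, chr1:24614592-24614651, minus strand: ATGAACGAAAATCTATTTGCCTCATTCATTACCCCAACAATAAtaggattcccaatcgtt

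The copies of mt-Co2 (Gm28661, 681 bases), mt-Co3 (Gm28437, 783 bases), mt-Nd4l (Gm10222) and mt-Nd4 (Gm28439, 876 bases) were likewise identical over the aligned bases. The remaining copies of this block each differed at 1 base over the aligned bases. For mt-Nd3, a complex I subunit, the difference was T3C against Gm28438, counted from 1 at the first base of the mt- gene, and for mt-Co1, the catalytic subunit of complex IV, it was A1066T against Gm29216. For mt-Co1 the aligned bases are 1063 to 1545 of 1545. Within the aligned bases, a read that does not cover the differing base matches both genes equally well. The mismatch is in capitals.
mt-Nd3, chrM:9459-9519, plus strand: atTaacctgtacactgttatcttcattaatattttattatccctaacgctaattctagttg
Gm28438, chr1:24613059-24613119, minus strand: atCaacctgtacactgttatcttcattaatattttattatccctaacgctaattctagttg
mt-Co1, chrM:6390-6450, plus strand: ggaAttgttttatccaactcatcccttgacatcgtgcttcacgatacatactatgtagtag
Gm29216, chr1:24616128-24616188, minus strand: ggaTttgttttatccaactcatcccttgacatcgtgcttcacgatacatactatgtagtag

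Copies of other genes had diverged further. The copy of mt-Cytb, the cytochrome b subunit of complex III, matched at 92.9% over 1142 bases, and 8 of the 100 bases of the stretch given here, in capitals, differed. Over all libraries this copy, Gm11410, held 0.00193% of the counts of both genes.
mt-Cytb, chrM:14645-14744, plus strand: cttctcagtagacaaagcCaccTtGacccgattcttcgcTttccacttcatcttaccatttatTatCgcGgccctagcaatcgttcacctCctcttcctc
Gm11410, chr4:80004489-80004588, plus strand: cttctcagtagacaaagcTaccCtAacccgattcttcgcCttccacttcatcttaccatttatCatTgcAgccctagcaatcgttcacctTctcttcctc

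Among the 13 protein genes, mt-Nd6, a membrane subunit of complex I, was the only one on the minus strand of the mitochondrial chromosome (chrM:13552-14070). Its last 14 bases lay opposite the last 14 bases of mt-Nd5 (chrM:11742-13565), which are in capitals on both strands. The libraries kept the strand of the RNA, so these genes could be counted apart if the counting used it, which the sources used here do not state.
mt-Nd5, chrM:13506-13565, plus strand: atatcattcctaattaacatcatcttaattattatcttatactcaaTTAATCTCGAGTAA
mt-Nd6, chrM:13552-13611, minus strand: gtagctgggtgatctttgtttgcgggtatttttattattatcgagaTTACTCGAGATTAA

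The total of a library was 22092612 counts at the median. Totals ran from 17826631 to 25470245 in the PFC and DMS and from 3090998 to 77042133 in the NAc, Amy and VTA, with the lowest in library FTL_371 of the vehicle-treated male VTA. In the female Amy the median total was 26933795.5 with vehicle and 44472649.5 with THC. In the male Amy it was 28362507.5 with vehicle and 12766415 with THC. The part of depth in the THC comparisons of the Amy was not tested. Sums of marker genes are given for the PFC, DMS and VTA, without those of the other regions beside them. Cortical projection neuron markers summed to between 2165 and 2519 CPM in the PFC (CPM are counts scaled to a fixed library total), medium spiny neuron markers to between 3444 and 5602 CPM in the DMS, and dopaminergic neuron markers to between 1106 and 3978 CPM in the VTA. Counts of sex-linked genes went against the labels of 2 libraries, FTL_344 of the female Amy THC group and FTL_356 of the male Amy THC group, and the main tests of the mt- genes in the Amy are given with and without them. Choroid plexus markers reached 3582 CPM in 1 Amy library, against a median of 23.3 CPM over the Amy libraries.

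The 37 genes together took 5.06% ± 1.16 (SD, n = 119) of the counts of a library. Their share was 5.20% ± 0.253 (SD, n = 24) in the PFC and 7.07% ± 0.515 (SD, n = 24) in the DMS, which were deposited in 1 table. In the other table it was 4.74% ± 0.254 (SD, n = 24) in the NAc, 4.02% ± 0.443 (SD, n = 24) in the Amy and 4.2004% ± 0.425 (SD, n = 23) in the VTA. Between tables, the region cannot be told apart from the table. Libraries of the PFC ran from 4.61% to 5.66% and those of the DMS from 5.28% to 7.62%, so that only the lowest DMS library fell within the PFC range. Libraries of the NAc ran from 4.14% to 5.10%, those of the Amy from 3.02% to 4.94% and those of the VTA from 2.99% to 4.76%, and these 3 ranges overlapped. Without FTL_344 and FTL_356 the Amy libraries held 4.10% ± 0.383 (SD, n = 22) and started at 3.24%.

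**Figure D1:**
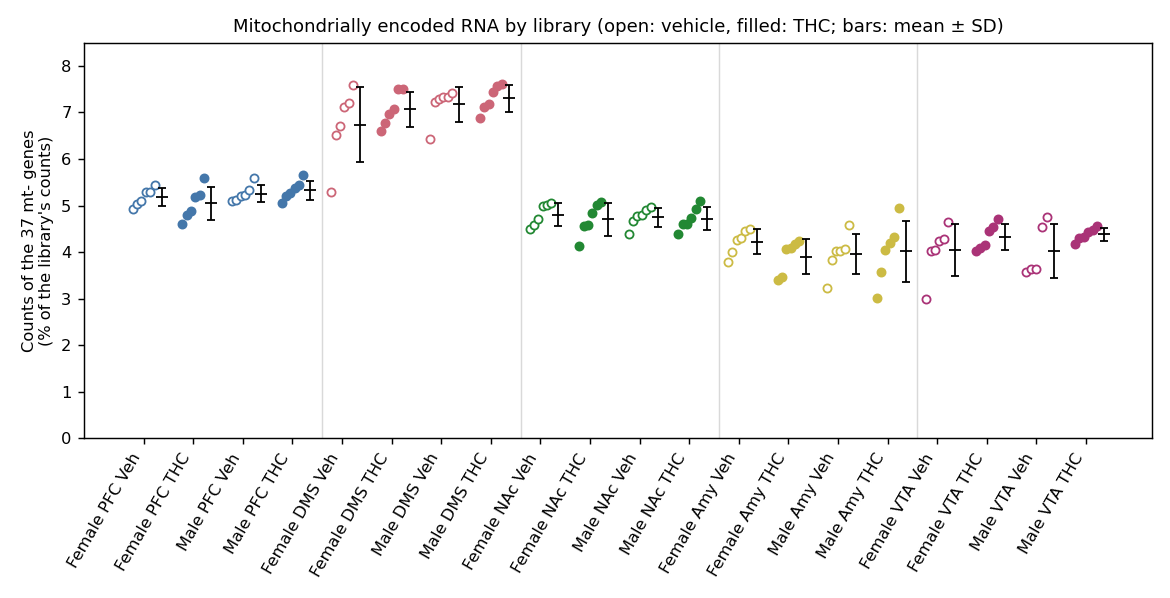
Counts of the 37 mt- genes as percent of all counts of a library (vertical axis) in the 20 groups of region, sex and treatment (horizontal axis). Points are libraries, open for vehicle and filled for THC, and bars are the group mean ± SD. The DMS groups sit highest, and THC and vehicle points overlap in every region and sex.

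Complex IV and complex I genes held most of these counts. Mt-Co1 alone held from 26.0% of the mt- counts of a library in the DMS to 29.5% in the PFC (means over libraries), mt-Cytb from 11.0% in the VTA to 12.5% in the DMS, and mt-Nd4 from 9.94% in the VTA to 11.2% in the DMS. The 12S and 16S ribosomal RNAs, mt-Rnr1 and mt-Rnr2, together held 12.2% ± 0.523 (SD, n = 24) of them in the PFC, 12.03% ± 0.561 (SD, n = 24) in DMS libraries and 12.1% ± 1.15 (SD, n = 24) in NAc libraries. The Amy had 14.1% ± 1.59 (SD, n = 24) and the VTA 13.4% ± 1.15 (SD, n = 23). The highest value, 19.1%, came from FTL_338 of the female Amy vehicle group. Mature mitochondrial rRNAs carry at most very short tails, and poly(A) selection therefore limits what these values say about the rRNAs themselves.

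Levels of different genes were compared as CPM per kb of gene. On that scale mt-Co1 was highest in each region, at 8221 ± 459 CPM per kb in the NAc and 12167 CPM per kb in the DMS. Mt-Co2, which carries the copper site that receives electrons from cytochrome c, followed at 5856 ± 450 CPM per kb in the NAc (SD, n = 24 for all NAc values here), and mt-Cytb at 4911 ± 306.7. The complex I genes mt-Nd4 (3611 ± 274.4) and mt-Nd1 (3607 ± 227) were within 1 SD of each other there, as were mt-Co3 (2371 ± 270), mt-Rnr2 (2293 ± 261.4), mt-Nd2 (2218 ± 193), mt-Nd5 (2030 ± 160) and mt-Rnr1 (2010 ± 251) with their neighbors in this order. The ATP synthase genes mt-Atp6 (1363 ± 159) and mt-Atp8 (1282 ± 154) came next and did not differ beyond their spread. Mt-Nd4l (583 ± 74.9) and mt-Nd3 (306.8 ± 54.2), both small complex I subunits, were lower. Mt-Nd6 was lowest in every region, at 38.4 ± 6.05 CPM per kb in the NAc and 82.3 CPM per kb in the DMS. Tails were not measured here, so poly(A) selection also limits what these values say about the level of mt-Nd6 in the tissue.

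These orders changed when the counts of the near-identical pseudogene were added to those of the mt- gene. Mt-Atp6 rose from 1363 to 7163 CPM per kb in the NAc, mt-Co3 from 2371 to 6830, mt-Nd3 from 306.8 to 1222 and mt-Nd4l from 583 to 1426. Mt-Atp6 and mt-Co3 then stood above mt-Cytb and below mt-Co1 (8502) and mt-Co2 (8178). Mt-Nd6, for which no such copy was annotated, stayed lowest.

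**Figure D2:**
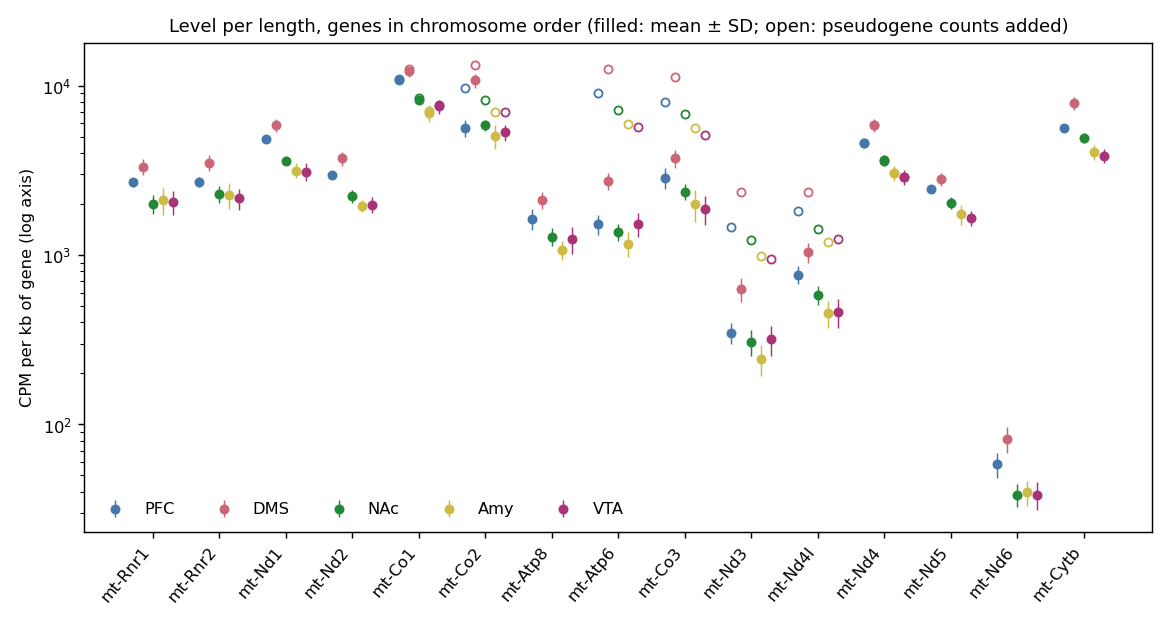
CPM per kb of gene (vertical log axis) for the 15 rRNA and protein genes in chromosome order (horizontal axis), in the 5 regions by color. Filled points are means ± SD over 23 or 24 libraries, and open points are means after the counts of the near-identical pseudogene were added. Open points of mt-Atp6, mt-Co3, mt-Nd3 and mt-Nd4l stand well above the filled ones, and mt-Nd6 is lowest.

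The 22 tRNA genes were almost unread. They are 59 to 75 bases long, and over all 119 libraries they held 220 counts, against 145868465 for the other 15 genes. In 12 of them no library had a count, which allows up to 3 counts in a library, or 0.136 CPM at the median total. Mt-Tm, the tRNA for methionine between mt-Tq and mt-Nd2, held 178 of the 220 counts, in 74 libraries and with at most 11 in a library. It was followed by mt-Tl1 with 16 counts and mt-Th with 9, and the other 7 that were read held 1 to 7 counts each. Counts of mt-Tm over the libraries of a region were 21 for the PFC, 34 for the DMS, 24 for the NAc, 44 for the Amy and 55 for the VTA. The 8 tRNA genes on the minus strand held 4 counts in all. None of the 22 passed the filter on low counts, so the main tests below are on 15 genes. The sequence of mt-Tm, the tRNA with most of the reads, is printed without capitals.
mt-Tm, chrM:3845-3913, plus strand: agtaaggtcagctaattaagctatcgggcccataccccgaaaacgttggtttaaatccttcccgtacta

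How the authors' counting divided reads between an mt- gene and its copy was visible in the counts. Of the counts of the pair mt-Atp6 and Gm10925, a median of 20.3% went to mt-Atp6, and the share ran from 12.7% to 42.7% over the 119 libraries. The share to mt-Nd3 ran from 17.9% to 49.8%, that to mt-Co3 from 26.0% to 51.1%, that to mt-Nd4l from 22.6% to 51.1% and that to mt-Co2 from 51.9% to 86.2%. Mt-Nd4, whose copy covers only its first 876 of 1378 bases, kept 99.4% to 99.9%, and mt-Co1, with a copy of 483 bases near its end, kept 94.5% to 98.9%. The shares moved with the region. For mt-Co2 the median was 58.2% in the PFC, where libraries ran from 51.9% to 70.7%, and 80.9% in the DMS, where they ran from 74.0% to 85.9%, without overlap. For mt-Atp6 the PFC had 16.7%, the DMS 21.9%, the NAc 19.5%, the Amy 19.8% and the VTA 25.8%. The highest shares of mt-Atp6 and mt-Nd3 and the lowest share of mt-Nd4l came from FTL_371, the library with the fewest counts. Whether a read came from the mitochondrial gene or from the nuclear copy cannot be told from these counts where the sequences are identical.

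**Figure D3:**
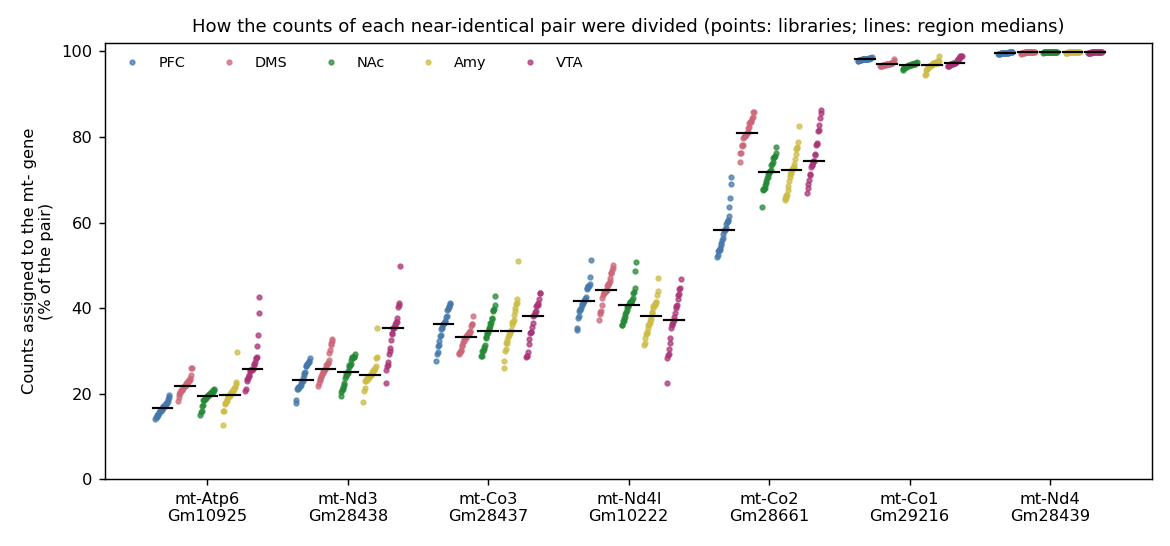
Counts assigned to the mt- gene as percent of the counts of the pair of mt- gene and pseudogene (vertical axis) for the 7 pairs at 99% identity or more (horizontal axis). Points are the 119 libraries colored by region and lines are region medians. For mt-Co2 the PFC libraries (51.9% to 70.7%) lie below the DMS libraries (74.0% to 85.9%), and mt-Co1 and mt-Nd4 keep over 94% in every library.

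The 7 pseudogenes held a further 1.197% ± 0.0589 (SD, n = 24) of a PFC library and 1.55% ± 0.138 (SD, n = 24) of a DMS library. They held 1.04% ± 0.0775 (SD, n = 24) of an NAc library, 0.839% ± 0.132 (SD, n = 24) of an Amy library and 0.765% ± 0.133 (SD, n = 23) of a VTA library. With them, the mt- genes summed to 6.40% for the PFC, 8.62% for the DMS, 5.79% for the NAc, 4.86% for the Amy and 4.96% for the VTA, which left the order of the regions within each table as it was.

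Regions were tested within a table. A gene was called at a false discovery rate (FDR, Benjamini-Hochberg) under 0.05 in edgeR's quasi-likelihood test and with a log2 fold change of 0.4 or more in either direction. All 15 genes were higher in the DMS than in the PFC, each at an FDR under 0.05, with a median log2 fold change of 0.35, and 6 of the 15 were called. Over all genes tested, the median was 0.02 and 51% were called in this comparison, so the share of called mt- genes was below the background. Shares of all genes given for regions count called genes, so they are no background for the counts at an FDR under 0.05 alone. Called were mt-Co2, mt-Atp6, mt-Nd3, mt-Nd6, mt-Cytb and mt-Nd4l.

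Mt-Co2 ran from 3204 to 4837 CPM in the 24 PFC libraries (median 3818) and from 5057 to 8241 CPM in the 24 DMS libraries (median 7426), without overlap. The log2 fold change was 0.92 (SE 0.04, adjusted p = 6.29e-26 in edgeR). Mt-Atp6 ran from 775 to 1310 CPM in the PFC (median 1013) and from 1211 to 2195 CPM in the DMS (median 1911). Only the lowest DMS library reached into the PFC range, and the log2 fold change was 0.84 (SE 0.05, adjusted p = 1.81e-19 in edgeR). Mt-Nd3 ran from 95.4 to 146 CPM in the PFC (median 118) and from 162 to 287.04 CPM in the DMS (median 216), again without overlap, with a log2 fold change of 0.83 (SE 0.06, adjusted p = 1.53e-16 in edgeR).

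For these 3 genes the share of the pair's counts assigned to the mt- gene was also higher in the DMS. Gm28661, the copy of mt-Co2, was lower in the DMS, at a median of 1683 CPM against 2755 CPM in the PFC, while mt-Co2 was higher. With the counts of each pair added up, the log2 fold change was 0.47 for mt-Co2 (SE 0.03), 0.46 for mt-Atp6 (SE 0.03) and 0.70 for mt-Nd3 (SE 0.04), and 6 genes were still called. Mt-Co3, the remaining core subunit of complex IV, was then among them, with 0.50 (SE 0.04) in place of 0.36, and mt-Nd4l was not, with 0.37 in place of 0.43.

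The 2 called genes without an annotated near-identical copy changed little with that addition. Mt-Cytb ran from 5803 to 7128 CPM in the PFC (median 6449) and from 6822 to 10245 CPM in the DMS (median 9076), with a log2 fold change of 0.46 (SE 0.03, adjusted p = 5.35e-20 in edgeR). Mt-Nd6 ran from 19.9 to 46.0 CPM in the PFC (median 30.0) and from 30.6 to 58.6 CPM in the DMS (median 42.6), and the groups overlapped. Its log2 fold change was 0.48 (SE 0.06, adjusted p = 3.87e-09 in edgeR). The smallest differences were those of mt-Co1 (0.16, SE 0.03), mt-Nd5 (0.17, SE 0.03), the largest mitochondrial complex I subunit, and mt-Nd1 (0.25, SE 0.03).

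In the Amy, 14 of the 15 genes were lower than in the NAc, 12 of them at an FDR under 0.05 in edgeR, with a median log2 fold change of -0.27 against -0.03 over all genes tested, or -0.26 without FTL_344 and FTL_356. Mt-Nd4l alone was called, against a background of 27.6% of genes called. It ran from 138 to 223 CPM in the NAc (median 171) and from 77.4 to 188 CPM in the Amy (median 130), with broad overlap and a log2 fold change of -0.41 (SE 0.07, adjusted p = 2.46e-07 in edgeR). Without FTL_344 and FTL_356 it was -0.40, which is short of the threshold, and with the pseudogene counts added it was -0.29. Next came mt-Nd3 (-0.39, SE 0.08) and mt-Cytb (-0.32, SE 0.04). The rRNAs and mt-Nd6 stood apart from the others, with log2 fold changes of 0.01 for mt-Rnr1 (SE 0.06), -0.06 for mt-Rnr2 (SE 0.05) and -0.0013 for mt-Nd6 (SE 0.07), none of them at an FDR under 0.05.

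The VTA and NAc showed a like picture. In the VTA 13 of the 15 genes were lower, 10 of them at an FDR under 0.05 in edgeR, with a median log2 fold change of -0.19 against 0.00482 over all genes, and 0 were called against a background of 54.4%. The largest differences were those of mt-Nd4l (-0.39, SE 0.07), mt-Cytb (-0.39, SE 0.04) and mt-Co3 (-0.38, SE 0.07), and the smallest those of mt-Nd3 (0.01, SE 0.08), mt-Rnr1 (-0.02, SE 0.06) and mt-Nd6 (-0.03, SE 0.07). With pseudogene counts added mt-Co3 (-0.45, SE 0.05) and mt-Nd3 (-0.40, SE 0.07) were called, so that the value of mt-Nd3 depended on how reads of the pair were divided.

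Between the VTA and the Amy the 15 genes were close, with 7 higher, 8 lower and a median log2 fold change of -0.02, or -0.03 without FTL_344 and FTL_356. Mt-Atp6 was called, against a background of 45.9%. It ran from 419 to 1051 CPM in the Amy (median 792) and from 608 to 1305 CPM in the VTA (median 1030), with a log2 fold change of 0.40 (SE 0.06, adjusted p = 5.98e-08 in edgeR). With Gm10925 added the sign turned, to -0.07 (SE 0.05), and without library FTL_370 or FTL_371 or without FTL_344 and FTL_356 the value fell below the threshold (0.38, 0.37 and 0.39). Mt-Nd3, at 0.40 (SE 0.09), was just below the threshold and likewise became -0.07 (SE 0.07) with its pseudogene added. Mt-Atp8, the small membrane subunit of the ATP synthase, had no such copy among the annotated transcripts searched. Copies outside annotated transcripts were not looked for, and the 43 bases it shares with mt-Atp6 are also in Gm10925. Mt-Atp8 was at 0.22 (SE 0.06) and at 0.20 with the addition to other genes. The smallest differences were those of mt-Nd1 (-0.02), mt-Nd4l (0.02) and mt-Rnr1 (-0.03).

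**Figure D4:**
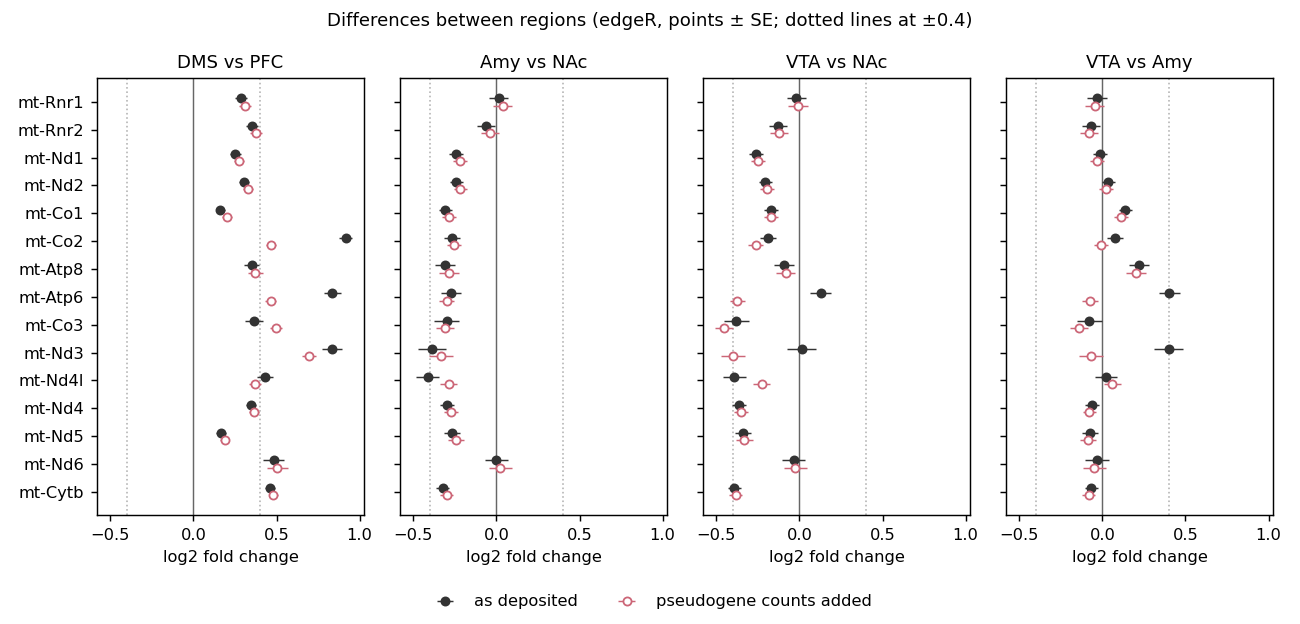
Log2 fold changes (horizontal axis, ± SE, edgeR) of the 15 rRNA and protein genes (vertical axis, chromosome order) in the 4 comparisons of regions, from the counts as deposited (filled) and after the counts of the near-identical pseudogene were added (open). Dotted lines mark an absolute log2 fold change of 0.4. All 15 genes lie right of 0 for DMS vs PFC, and mt-Atp6, mt-Nd3 and, for DMS vs PFC, mt-Co2 move most with the addition.

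Nuclear genes that serve the same complexes were set beside the mt- genes. Of 19 nuclear core subunits of the respiratory chain and ATP synthase, all 19 were higher in the VTA than in the NAc, with a median log2 fold change of 0.37. The 6 of them that were called are a smaller share than the 54.4% of all genes called in this comparison. The 15 mt- genes had a median of -0.19 there. Cox4i1, a nuclear subunit of complex IV, ran from 299.4 to 451 CPM in the NAc (median 386) and from 461 to 633 CPM in the VTA (median 582), without overlap, with a log2 fold change of 0.52 (SE 0.05). All 19 were also higher in the VTA than in the Amy, with a median of 0.30 against -0.02 for the mt- genes. Between the DMS and the PFC their median was 0.02, 11 were higher and 8 lower, and Ndufs3, a complex I subunit, was the only one called (0.44, SE 0.03), where 51% of all genes were. The difference between nuclear and mt- genes was not tested.

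Counts of called genes among the factors of mitochondrial transcription and replication are read here against the 51% of all genes called between the DMS and the PFC. Of 11 genes of mitochondrial transcription 4 were called higher and 0 lower than in the PFC, namely Mterf2 (0.76, SE 0.04), Mterf1a and Mterf1b, of the transcription termination factor family, and the elongation factor gene Tefm, a smaller share than that of all genes. Of 8 genes of mitochondrial DNA replication 4 were called higher and 0 lower, close to the share of all genes, among them the helicase gene Twnk (0.67, SE 0.03) and the ligase gene Lig3 (0.62, SE 0.03). Of 18 genes of mitochondrial RNA processing and stability only Hsd17b10, a part of mitochondrial RNase P (0.69, SE 0.04), and Slirp, which stabilizes mitochondrial messenger RNAs (0.58, SE 0.04), were called, both higher, while the median of the list was -0.07. Of 7 nuclear regulators of mitochondrial genes 4 were called higher and 1 lower. Ppargc1a, a coactivator of mitochondrial biogenesis, was the one lower in the DMS, from 24.9 to 32.5 CPM against 50.1 to 64.7 CPM in the PFC, without overlap (log2 fold change -1.08, SE 0.03). Its relative Ppargc1b was higher (0.67, SE 0.04).

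In the VTA against the NAc, 4 of the 11 transcription genes were called lower and 0 higher, 3 replication genes lower (Polg, Twnk and Lig3) and 1 higher (Mgme1), and of the 7 regulators 3 were lower and 1 higher. Of all genes tested, 54.4% were called there. Ppargc1b was lower (-0.95, SE 0.06) and Ppargc1a higher (0.50, SE 0.05). Of the processing genes Fastkd5 was called lower (-0.75, SE 0.07) and Rexo2 higher. In the Amy against the NAc, 0 of the transcription genes, 1 of the replication genes (Lig3, -0.43), 1 of the processing genes (Fastkd5, -0.46) and 2 of the regulators (Gabpa, -0.45, and Ppargc1b, -0.54) were called, all lower, against 27.6% of all genes.

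Cell type markers moved with the region as well. In the DMS all 8 oligodendrocyte markers were called higher than in the PFC, with a median log2 fold change of 1.16, and 6 of 8 neuron markers were called lower, with a median of -1.46. Of all genes tested, 51% were called between the DMS and the PFC, in either direction. Summed oligodendrocyte markers ran from 1799 to 4505 CPM in the PFC and from 6021 to 8517 CPM in the DMS. In the VTA, where the mt- genes were lower than in the NAc, summed oligodendrocyte markers ran from 10373 to 19381 CPM against 3386 to 6607 CPM in the NAc. RNAs without a poly(A) tail were also higher in the DMS, with 5 of 5 tested called and a median of 1.27, and their sum ran from 64.1 to 155 CPM there and from 19.3 to 59.0 CPM in the PFC. None of the listed markers was at 0 in all libraries. The part of these in the regional differences of the mt- genes was not tested.

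THC against vehicle gave 0 called mt- genes in each of the 10 comparisons of region and sex, with edgeR and with DESeq2. The log2 fold changes of the 15 genes ran from -0.32 to 0.30 over all 10. In edgeR, the share of all tested genes that was called was 0 in 8 of the comparisons, 0.0127% in the female DMS and 1.57% in the female Amy. DESeq2 called 24 of 28910 genes in the female DMS, 544 of 31194 in the female Amy and 5 of 29611 in the male NAc. It called 6 of 29214 in the female VTA, 1 of 30630 in the male VTA and 0 in the other groups. At an unadjusted p under 0.05 in edgeR, members were counted against the share of all genes tested. The PFC had 2 of 15 in females (5.84% of all genes) and 0 in males (4.07%), and the DMS 1 in females (8.9%) and 1 in males (1.93%). The NAc had 1 in females (4.61%) and 1 in males (16.7%), the Amy 3 in females (21.9%) and 0 in males (1.84%), and the VTA 0 in females (9.02%) and 0 in males (5.92%). DESeq2 gave 2, 2, 1, 1, 1, 3, 3, 0, 1 and 2 in the same order. Its counts are out of 17 to 21 mt- genes, since the filter on low counts was not applied. The share of all genes was not counted for them. In none of the 10 comparisons did any of the 15 genes have THC and vehicle libraries without overlap. Such separation was not counted over all genes, so no background stands beside this.

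**Figure D5:**
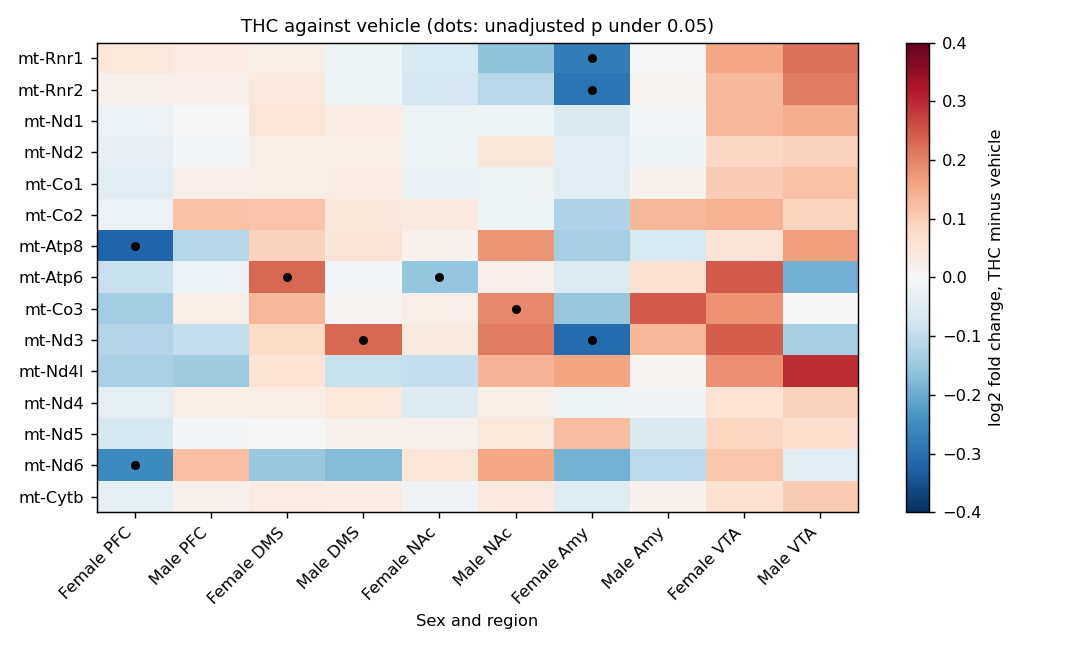
Log2 fold changes of THC against vehicle (color, red for higher with THC) for the 15 rRNA and protein genes (vertical axis) in the 10 groups of sex and region (horizontal axis). Dots mark an unadjusted p under 0.05 in edgeR. The values lie between -0.32 and 0.30, and the VTA columns of both sexes are mostly red.

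In the PFC of females, 13 of the 15 genes were lower with THC, with a median log2 fold change of -0.04 against 0.00218 over all genes. Mt-Nd6 had the smallest p. It ran from 29.9 to 46.0 CPM with vehicle (median 33.9) and from 28.3 to 33.3 CPM with THC (median 29.1), and 5 of 6 THC libraries were below all vehicle libraries. The log2 fold change was -0.26 (SE 0.08, unadjusted p = 0.00867, adjusted p = 0.786 in edgeR). Without vehicle library FTL_261 it was -0.17. Mt-Atp8 had the largest change, from 305.8 to 504 CPM with vehicle (median 363.1) and from 281.035 to 338.7 CPM with THC (median 292.7), with 4 of 6 THC libraries below all vehicle libraries (log2 fold change -0.32, SE 0.11, adjusted p = 0.801 in edgeR).

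Mt-Atp8 also had the smallest p in the PFC of males, where it ran from 321.8 to 356.8 CPM with vehicle (median 339.1) and from 269.6 to 363.3 CPM with THC (median 315.8). Its log2 fold change was -0.11 (SE 0.05, unadjusted p = 0.0553, adjusted p = 1.00 in edgeR), and 9 of the 15 genes were higher. Mt-Nd4l had the largest change in the male PFC, at -0.14 (SE 0.08), from a median of 222 CPM to one of 203 CPM, with overlap.

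In the DMS of females 14 of 15 genes were higher with THC, with a median of 0.04. Without vehicle library FTL_285, the DMS library with the lowest mt- share, 5 of 15 were higher and the median was -0.03. Mt-Atp6 had both the smallest p and the largest change, from 1211 to 1912 CPM with vehicle (median 1709) and from 1786 to 2101 CPM with THC (median 1948), and 4 of 6 THC libraries exceeded every vehicle library. Its log2 fold change was 0.23 (SE 0.09, unadjusted p = 0.0212, adjusted p = 0.462 in edgeR), 0.15 without FTL_285 and 0.07 with the counts of Gm10925 added. In the DMS of males it was mt-Nd3, from 179 to 239 CPM with vehicle (median 206) and from 189 to 287.04 CPM with THC (median 247). The log2 fold change was 0.23 (SE 0.10, unadjusted p = 0.0481, adjusted p = 1.00 in edgeR), and 0.03 with Gm28438 added.

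In the NAc of females mt-Atp6 had the smallest p and the largest change, from 828.6 to 1004 CPM with vehicle (median 972) and from 750.4 to 1007 CPM with THC (median 829.3). The log2 fold change was -0.15 (SE 0.07, unadjusted p = 0.0480, adjusted p = 0.991 in edgeR) and -0.02 with Gm10925 added. In the NAc of males mt-Co3 ran from 1523 to 2063 CPM with vehicle (median 1748) and from 1714 to 2279 CPM with THC (median 2088), with 4 of 6 THC libraries above all vehicle libraries. Here the log2 fold change was 0.19 (SE 0.08, unadjusted p = 0.0240, adjusted p = 0.240 in edgeR) and 0.06 with Gm28437 added. Mt-Nd3 had the largest change there, at 0.21 (SE 0.12), from a median of 105 CPM to one of 111 CPM. With 1 library left out, 0 to 4 members had an unadjusted p under 0.05 in the male NAc, and 4 did without THC library FTL_327.

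The female Amy had the most members at an unadjusted p under 0.05, in the comparison with the highest background. Mt-Rnr2 ran from 3354 to 5248 CPM with vehicle (median 3643) and from 2750 to 3564 CPM with THC (median 3326), and 3 of 6 THC libraries were below all vehicle libraries. Its log2 fold change was -0.29 (SE 0.11, unadjusted p = 0.0178, adjusted p = 0.144 in edgeR), and -0.19 without vehicle library FTL_338. Without FTL_344 it was -0.25. Mt-Rnr1 was at -0.28, or -0.23 without FTL_344, and mt-Nd3, the largest change, at -0.31 (SE 0.14), from 79.6 to 116 CPM with vehicle (median 87.6) and from 51.3 to 89.4 CPM with THC (median 82.6). Without FTL_344 the latter was -0.22, and 1 of the 15 genes had an unadjusted p under 0.05 in edgeR, against 4 without FTL_337. Over the 15 genes, 13 were lower and the median was -0.06, or -0.03 without FTL_344.

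Markers of other cells moved in the female Amy as well. The cortical projection neuron genes Slc17a7 (0.76, SE 0.11, adjusted p = 0.00859 in edgeR), Tbr1 (0.94, SE 0.14) and Neurod6 (0.83, SE 0.18) rose with THC, and Th, for the enzyme that limits dopamine synthesis, fell by 0.64 on the log2 scale (SE 0.13). Without FTL_344, Slc17a7 (0.76), Tbr1 (0.97) and Neurod6 (0.89) were still called, and Th was at -0.63 with an adjusted p of 0.0519 in edgeR, while the share of all genes called went from 1.57% to 0.936%. The summed marker levels that follow include FTL_344. All 8 oligodendrocyte markers were lower, with a median of -0.44 and 0 called. Summed, they ran from 2366 to 7600 CPM with vehicle and from 2564 to 4497 CPM with THC. Choroid plexus markers ran from 17.6 to 1151 CPM with vehicle and from 18.0 to 3582 CPM with THC. The part of these in the values of the mt- genes was not tested.

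In the Amy of males no member had an unadjusted p under 0.05. Mt-Co3 had the smallest p and the largest change, from 1009 to 1899 CPM with vehicle (median 1341) and from 1115 to 2284 CPM with THC (median 1690), with a log2 fold change of 0.24 (SE 0.19, unadjusted p = 0.229, adjusted p = 1.00 in edgeR) and 0.06 with Gm28437 added. Without FTL_356 mt-Co3 was at 0.34 (unadjusted p = 0.0895 in edgeR), the median over the 15 genes moved from 0.01 to 0.06, and 0 members had an unadjusted p under 0.05 in edgeR.

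In the VTA of females all 15 genes were higher with THC, with a median of 0.13 against 0.000143 over all genes, and none had an unadjusted p under 0.05. With 1 surrogate variable in the fit the median was 0.04. Most of the 15 genes share a precursor and all share the library total, so they are not 15 separate observations. Mt-Rnr1 had the smallest p, from 1319 to 2025 CPM with vehicle (median 1801) and from 1826 to 2183 CPM with THC (median 1923), with a log2 fold change of 0.16 (SE 0.08, unadjusted p = 0.0747, adjusted p = 0.585 in edgeR). Mt-Atp6 had the largest change, at 0.25 (SE 0.13), from a median of 977 CPM to one of 1197 CPM, and 0.09 with Gm10925 added. A single vehicle library, FTL_358, held the lowest mt- share of all. Without it the median over the 15 genes was 0.07 and 0 had an unadjusted p under 0.05, and without vehicle library FTL_357, which held the highest share of its group, the median was 0.19 and 5 did. In this comparison all 7 microglia markers were lower, each at an unadjusted p under 0.05, with a median of -0.36 and 0 called. Their sum ran from 339.5 to 434 CPM with vehicle and from 270.8 to 391 CPM with THC, and its part in the mt- values was not tested.

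In the VTA of males 12 of 15 genes were higher with THC, with a median of 0.09. The 5 vehicle libraries held 3.57%, 3.63%, 3.63%, 4.53% and 4.76% of their counts in mt- genes, and the 6 THC libraries 4.18% to 4.56%, so that the THC libraries lay within the vehicle range. Mt-Atp8 had the smallest p, at 206, 225, 242, 243 and 278.7 CPM with vehicle and from 238 to 311.5 CPM with THC (median 270.7), with a log2 fold change of 0.17 (SE 0.08, unadjusted p = 0.0539, adjusted p = 0.819 in edgeR). Mt-Nd4l had the largest change, at 65.3, 109, 122, 128 and 148 CPM with vehicle and from 117 to 159.6 CPM with THC (median 151). Its log2 fold change was 0.30 (SE 0.16), and 0.18 without FTL_371, which held its lowest value. With all libraries, the count at an unadjusted p under 0.05 in edgeR was 0. It was 10 of 15 without vehicle library FTL_370 and 3 without FTL_373. With any other single library left out it was 0 or 1, and in no case was a gene called.

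Treating the sexes together, with sex as a covariate, also gave 0 called mt- genes in each region in edgeR and DESeq2, where 0 of all genes were called by edgeR. At an unadjusted p under 0.05 in edgeR the PFC had 2 of 15 (4.78% of all genes), the DMS 0 (4.89%), the NAc 0 (10.3%), the Amy 0 (7.05%) and the VTA 4 (10.2%). In the PFC these were mt-Atp8, at -0.22 (SE 0.07, unadjusted p = 0.00328, adjusted p = 0.917 in edgeR), and mt-Nd4l, at -0.14 (SE 0.06). In the VTA they were mt-Nd4l (0.24, SE 0.11), mt-Rnr1 (0.19, SE 0.08), mt-Rnr2 (0.16, SE 0.07) and mt-Nd1 (0.14, SE 0.07), with all 15 higher. That count rests on single libraries. It was 1 without FTL_369, FTL_371 or FTL_372 of the male vehicle group, each left out in turn, 5 without FTL_373 and 6 without FTL_370. In the Amy the median over the 15 genes was -0.02, or 0.01 without FTL_344 and FTL_356, where again 0 members had an unadjusted p under 0.05 in edgeR.

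The effect of THC was not found to differ between the sexes for any mt- gene. The interaction of sex and treatment gave 0 called members in each region, with edgeR and with DESeq2. In edgeR the share of all genes called was 0 except for 0.0059% in the Amy. DESeq2 called 27 of 32442 genes in the Amy, 3 of 31072 in the DMS and 0 in the other regions. At an unadjusted p under 0.05 in edgeR the PFC had 1 of 15 (5.87% of all genes), the DMS 0 (5.9%), the NAc 0 (11%), the Amy 0 (15.8%) and the VTA 1 (6.16%). These were mt-Nd6 in the PFC, where the log2 fold change in males minus that in females was 0.37 (SE 0.16, adjusted p = 0.834 in edgeR), and mt-Atp6 in the VTA, at -0.44 (SE 0.18, adjusted p = 0.780 in edgeR). With Gm10925 added the sign of the latter turned, to 0.08 (SE 0.14, unadjusted p = 0.584 in edgeR). It was -0.39 without FTL_369 and -0.37 without FTL_371, and in each of these 3 cases 0 members had an unadjusted p under 0.05 in edgeR. Without FTL_344 and FTL_356 the Amy also had 0 members called and 0 at an unadjusted p under 0.05 in edgeR, and its median over the 15 genes moved from 0.07 to 0.08. Over the 5 regions the standard errors of these differences ran from 0.05, for mt-Nd2 in the PFC, to 0.25, for mt-Nd3 in the Amy.

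Nuclear genes of mitochondrial function gave 0 calls in the 10 comparisons of THC with vehicle. The smallest p of each list belonged to Mterf3 in the female Amy (-0.22, SE 0.06, adjusted p = 0.0651 in edgeR) among transcription genes, to the polymerase gene Polg in the male NAc (0.13, SE 0.05) among replication genes, to Slirp in the male VTA (0.27, SE 0.08) among processing genes, to Ppargc1a in the male VTA (-0.18, SE 0.06) among regulators and to Ndufs7 in the male PFC (-0.12, SE 0.04) among nuclear core subunits. Of the 7 pseudogenes it was Gm29216 in the male NAc (0.27, SE 0.09, adjusted p = 0.215 in edgeR). Beside the 4 genes called in the female Amy, the smallest p of the other marker lists belonged to Nefl in the female Amy (0.25), Mag in the female DMS (-0.21), Aldoc in the female NAc (0.16), Csf1r in the female VTA (-0.45), Flt1 in the female DMS (-0.16), Otx2 in the male NAc (-0.83), Hba-a2 in the male Amy (0.40) and Ppp1r1b in the female Amy (0.88), and those of nuclear-retained and of tail-less RNAs to Snhg11 in the female DMS (-0.12) and Rn7sk in the female PFC (1.28). None of these was called.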

How the data were processed

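The authors sequenced poly(A) RNA as stranded pairs of 100-base reads, trimmed them with cutadapt 2.9, aligned them to mm10 with STAR 2.7.3a and counted them with RSEM 1.3.1. The deposited values are RSEM expected counts per gene, without normalization, in 2 tables, and RSEM splits reads with several matching genes by estimated probability. Columns not used number 0. Counts were rounded, and levels are TMM-normalized CPM. Tests used edgeR 4.0.16 in R 4.3.3 (its filter on low counts, TMM, robust quasi-likelihood F test, Benjamini-Hochberg adjustment over all genes tested), each THC comparison on its own libraries, sexes together or interacting within a region, regions within a table. The scripts of the tests were checked on simulated data. Copies of mt- genes were found with BLAST 2.17.0 among GENCODE M21 transcripts, in which 53292 of 55291 symbols occur. Alternatives were DESeq2 1.42.0, its size factors, no filter, mt- genes left out of normalization, all groups in 1 fit, 1 surrogate variable (sva 3.50.0) and each library left out. Adding pseudogene counts, and leaving out male VTA libraries from the fits over both sexes and regions, were chosen after seeing the data. The mt- genes and the lists were chosen with earlier results of these data known. Named were the rRNA and protein genes, called genes, and the smallest p or largest change per THC comparison, the 3 largest and smallest regional differences, and the smallest p per list. Depth and the number of libraries per group set what can be found, and intervals of shares are Wilson 95% intervals that cover counting error only.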

Additional observations from a re-analysis of the deposited data

Results flagged for a closer look

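Of 52 sets of library values checked, 4 held a library that stood far from the rest of its group (a gap to the nearest library over 0.625 of the range of the group of 6, the critical value of Dixon), and chance alone marks about 1 in 20. In the male DMS vehicle group, library FTL_301 held 6.43% of its counts in mt- genes (Wilson 95% interval 6.42% to 6.44%), against 7.23% to 7.41% in the other libraries. In the female VTA vehicle group, FTL_358 held 2.99% (Wilson 95% interval 2.98% to 3.0005%), against 4.03% to 4.65%. Mt-Nd6 was at 46.0 CPM in FTL_261 of the female PFC vehicle group, against 29.9 to 35.4 CPM in the other libraries. In the female PFC THC group it was at 33.3 CPM in FTL_267, against 28.3 to 29.5 CPM. No cause of these values was tested.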

How the results depend on the processing

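THC against vehicle, in each sex or both, and its interaction with sex gave 0 called mt- genes in 251 fits under other settings, 129 of them with 1 library left out. The counts of called mt- genes between regions were less settled. For Amy vs NAc the count of 1 became 0 with DESeq2, with DESeq2 size factors in edgeR, without the filter, with pseudogene counts added, with vehicle libraries only and without FTL_344 and FTL_356. For VTA vs Amy the count of 1 became 0 under the same 6 settings and with mt- genes left out of normalization, and it was 0 to 1 with 1 male VTA vehicle library left out. For VTA vs NAc the count of 0 became 2 with pseudogene counts added and 1 with vehicle libraries only, and it was 0 to 1 with 1 male VTA vehicle library left out. For DMS vs PFC it stayed within 1.5 times of 6. One called value turned, that of mt-Atp6 in VTA vs Amy, to a log2 fold change of -0.0729 with pseudogene counts added. The summed share moved with that addition to 6.40% for the PFC, 8.62% for the DMS, 5.79% for the NAc, 4.86% for the Amy and 4.96% for the VTA, and to 5.63% for the PFC as TMM-normalized CPM. No paired analysis was possible because the library numbers are unique to a library and the labels link none to a mouse. Low counts limit the tRNA genes, and the division of reads between identical sequences limits mt-Atp6, mt-Co2, mt-Co3, mt-Nd3 and mt-Nd4l. The causes were not tested.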
